A study of Arabidopsis thaliana with 4 samples.

Results

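Transcripts of 35 genes for enzymes and regulators of the Calvin cycle and photorespiration were followed in explants cut from leaves of Arabidopsis thaliana. The explants of this model flowering plant were sampled before and after 2 days of culture. The set holds 23 genes of the Calvin cycle and 12 of photorespiration, chosen by locus identifier from textbook lists of these pathways out of the 37686 genes in the table, and 35 of 35 were present and passed the filter on low values. RNA came from Col-0, a wild-type accession, and was taken at the wound of detached leaves (part of the petiole and some tissue around it) of seedlings 12 days old that had grown at 22 °C with 16 h of light and 8 h of darkness a day on Murashige and Skoog medium with sucrose. The 2-day group (2 libraries) was sampled after 2 days of culture on B5 medium with sucrose in the dark, and the time 0 group (2 libraries) was sampled before culture. Both groups carry the same wild-type genotype and come from cut leaves, so 2-day explants differ from time 0 in darkness, medium, age and time since detachment together, and these cannot be told apart. The labels give no clock time of harvest. Whether libraries of 1 group came from separate seedlings is not stated either, and the spread behind the p-values may therefore be a technical one.

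The Calvin cycle runs in the chloroplast stroma in a carboxylation, a reduction and a regeneration phase: Rubisco adds CO2 to ribulose bisphosphate, the product is reduced to triose phosphate with ATP and NADPH from the light reactions, and the acceptor is rebuilt. Rubisco also reacts with oxygen, and the phosphoglycolate that results is salvaged by photorespiration, a route through chloroplast, peroxisome and mitochondrion that ends in glycerate. Many nuclear genes of both pathways are known in leaves as light-induced and sugar-repressed genes.

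Values are in TPM (reads per transcript length, scaled to 1000000 in each library) as deposited, so levels of different genes can be set side by side. The sequencing depth is unknown. Log2 differences are 2 days minus time 0 on the log2(TPM + 1) scale from a limma fit across the 19078 genes that averaged 1 TPM or more, and a gene was called at an adjusted p below 0.05. Of the genes tested, 29.5% (5636) were called lower and 39.2% (7485) higher (68.8% in either direction), and after quantile normalization 7187 were called lower and 6385 higher. The median absolute log2 difference between the replicate libraries was 0.118 at 2 days and 0.071 at time 0. Markers of other leaf cell types were measured as well: 2 of 3 epidermis markers were lower (summed level 311 and 271 TPM at 2 days, against 581 and 562 TPM at time 0), as were 2 of 3 guard cell markers (24.5 and 21.9 TPM against 43.4 and 47.3 TPM), 1 of 3 phloem markers (142 and 138 TPM against 179 and 171 TPM) and 1 of 3 xylem markers (56.3 and 57.9 TPM against 90.5 and 92.4 TPM), with 0 of these 12 called higher and none at 0. The markers within a type moved unevenly. In phloem SEOR1 fell (mean 35.5 TPM at 2 days, against 79.2 TPM at time 0), and SUC2 and APL did not pass. In xylem XCP1 fell (43.4 TPM against 78.8 TPM), and VND7 and IRX3 did not pass. In epidermis PDF1 fell most (1.955 TPM against 197.9 TPM), ATML1 was lower and FDH did not pass (266.6 TPM against 302.5 TPM). Fewer cells of a type and less RNA per cell cannot be told apart in whole tissue, and the part of cell composition in the results was not tested.

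Calvin cycle and photorespiration transcripts fell broadly in culture. Of the 35 genes, 32 were lower at 2 days, 2 were higher and 1 was not past the threshold, so that 34 of 35 were called in either direction, where 68.8% of all tested genes were. At least 2-fold falls (log2 difference of -1 or less) were called in 29 of 35, where 10.4% of all tested genes reached that size, and 22 of 35 fell at least 4-fold (-2 or less), against 3.06% of all tested genes. The median log2 difference was -2.31 over the 35 genes and 0.09 over all tested genes. The summed level of the 35 genes was 6169 and 6875 TPM in the 2-day libraries, against 41222 and 39611 TPM at time 0. In 33 genes both 2-day libraries lay below both time 0 libraries, which holds for 37.7% of all tested genes, and in 2 genes (TKL2 and CP12-3) both lay above, which holds for 48.2%.

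**Figure D1:**
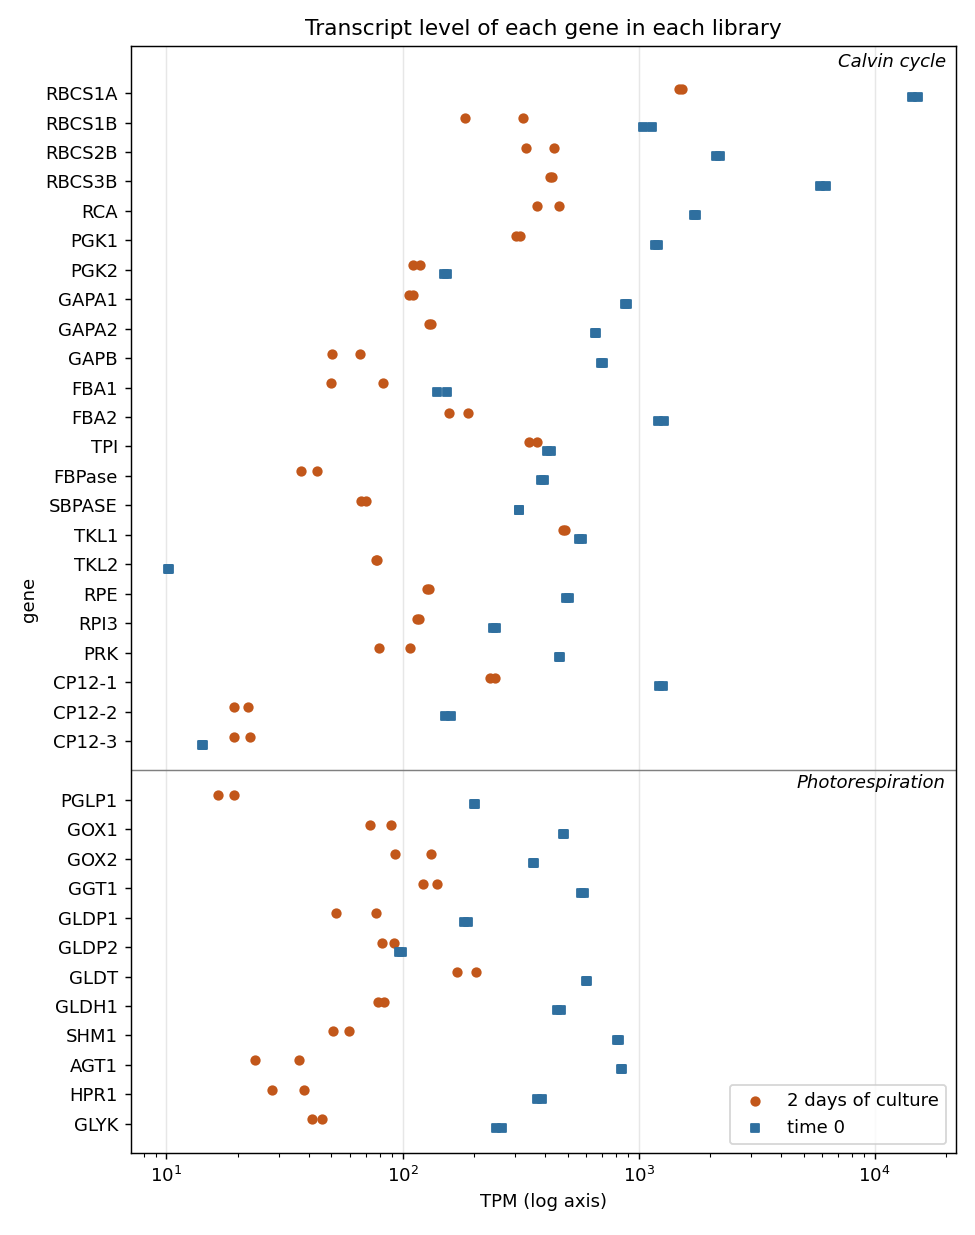
Transcript level in TPM (log axis) of each gene, with 1 point per library (circles, 2 days of culture; squares, time 0; n = 2 libraries per group). The circles lie to the left of the squares in 33 of 35 genes, and to the right for TKL2 and CP12-3.

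The carboxylation step lost the largest amount of transcript. The small subunit of Rubisco is encoded by 4 nuclear genes, and RBCS1A (AT1G67090) was the most abundant of the 35 transcripts in every library. Its level was 1482 and 1532 TPM at 2 days, against 15271 and 14371 TPM at time 0. The groups lay far apart, and RBCS1A fell to 10.2% of its time 0 mean (log2 difference -3.30, 95% interval -3.49 to -3.10, limma adjusted p = 1.02e-05). After quantile normalization its log2 difference was -2.69, outside that interval (limma adjusted p = 2.15e-05). The other 3 copies stand next to each other on chromosome 5, with 0 protein-coding genes between neighbours. RBCS3B (AT5G38410) stood at 431 and 423 TPM at 2 days, against 6199 and 5895 TPM at time 0. It fell most of the 4 copies, to 7.06% (log2 difference -3.82, limma adjusted p = 6.06e-06).

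RBCS2B (AT5G38420) had 335 and 439 TPM at 2 days, against 2224 and 2127 TPM at time 0 (log2 difference -2.50, limma adjusted p = 7.06e-05). RBCS1B (AT5G38430), the least abundant copy, had 183 and 323 TPM at 2 days, against 1135 and 1043 TPM at time 0 (log2 difference -2.16, limma adjusted p = 0.0012). The 2-day libraries of RBCS1B differed from each other by more than those of the other copies, and they still lay below both time 0 libraries. Of the 50-base windows of their transcripts, 13.9% (RBCS1B), 21.4% (RBCS2B), 14.6% (RBCS3B) and 1.4% (RBCS1A) also occur in another copy, so the division of reads among the copies is uncertain. The sum over the 4 copies depends on that division less than single copies do. It was 2432 and 2717 TPM at 2 days, against 24829 and 23436 TPM at time 0 (log2 difference -3.23, 95% interval -3.48 to -2.98, limma adjusted p = 1.39e-05 with the copies summed before the fit). RCA (AT2G39730) encodes Rubisco activase, which frees the active site of bound sugar phosphates. RCA had 372 and 459.6 TPM at 2 days, against 1746 and 1709.8 TPM at time 0, and fell to 24.1% (log2 difference -2.06, limma adjusted p = 6.61e-05).

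In the reduction phase 5 of 5 genes fell, by very different amounts, where 29.5% of all tested genes were lower. PGK1 (AT3G12780) and PGK2 (AT1G56190) encode chloroplast phosphoglycerate kinases, which use ATP to phosphorylate 3-phosphoglycerate. PGK1 stood at 302 and 314 TPM at 2 days, against 1203 and 1170.2 TPM at time 0 (log2 difference -1.94, limma adjusted p = 1.28e-05). PGK2 stood at 111 and 118 TPM at 2 days, against 155 and 149 TPM at time 0 (log2 difference -0.41, limma adjusted p = 0.00207). The groups did not overlap for either gene, but PGK1 fell to 25.9% and PGK2 to 75.3% of the time 0 mean. The next enzyme, the NADPH-using glyceraldehyde-3-phosphate dehydrogenase of the chloroplast, is built from A and B subunits. The A subunit gene GAPA1 (AT3G26650) had 107 and 111 TPM at 2 days, against 876 and 896 TPM at time 0 (log2 difference -3.01, limma adjusted p = 6.4e-06). Its copy GAPA2 (AT1G12900) had 129.8 and 132 TPM at 2 days, against 651 and 663 TPM at time 0 (log2 difference -2.32, limma adjusted p = 8.3e-06). GAPB (AT1G42970), whose subunit carries a regulatory tail related to CP12, had 50.3 and 66.0 TPM at 2 days, against 709 and 697 TPM at time 0. It fell furthest of the 3 subunit genes, to 8.28% (log2 difference -3.59, 95% interval -3.92 to -3.25, limma adjusted p = 2.29e-05).

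Regeneration of the CO2 acceptor covered the widest range of the phases, with 9 of 10 genes lower, 1 higher and log2 differences between -3.26 and 2.81. Over all tested genes 29.5% were lower and 39.2% higher. The chloroplast fructose-1,6-bisphosphatase (AT3G54050) had 37.0 and 43.5 TPM at 2 days, against 397 and 387 TPM at time 0 (log2 difference -3.26, limma adjusted p = 1.14e-05), and 4.7% of its windows also occur on the opposite strand of a neighbouring gene. SBPASE (AT3G55800), the sedoheptulose-1,7-bisphosphatase, had 66.6 and 70.3 TPM at 2 days, against 311 and 313 TPM at time 0 (log2 difference -2.17, limma adjusted p = 1.09e-05). PRK (AT1G32060), the phosphoribulokinase that makes the acceptor itself, had 79.2 and 108 TPM at 2 days, against 464 and 462 TPM at time 0 (log2 difference -2.31, limma adjusted p = 0.000114). The groups of all 3 genes lay far apart, with 2-day means of 10.3%, 21.9% and 20.2% of time 0.

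The chloroplast aldolases condense triose phosphates into fructose and sedoheptulose bisphosphates. FBA2 (AT4G38970) had 158 and 189 TPM at 2 days, against 1277 and 1207 TPM at time 0 (log2 difference -2.84, limma adjusted p = 2.01e-05). The less abundant FBA1 (AT2G21330) had 49.8 and 82.7 TPM at 2 days, against 154 and 139.8 TPM at time 0 (log2 difference -1.18, limma adjusted p = 0.00759). Without time 0 replicate 1 the FBA1 call was lost (log2 difference -1.11, limma adjusted p = 0.0523). The epimerase RPE (AT5G61410), which interconverts pentose phosphates, had 129.5 and 127 TPM at 2 days, against 505 and 492 TPM at time 0 (log2 difference -1.95, limma adjusted p = 1.11e-05). The ribose-5-phosphate isomerase gene RPI3 (AT3G04790) had 115 and 117 TPM at 2 days, against 249.8 and 241 TPM at time 0 (log2 difference -1.08, limma adjusted p = 4.38e-05), with 19.7% of its windows on the opposite strand of another gene. Both RPE and RPI3 groups were tight and did not overlap.

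The 2 smallest falls of the regeneration phase were those of triose-phosphate isomerase and transketolase 1. The chloroplast isomerase TPI (AT2G21170) had 344 and 370.3 TPM at 2 days, against 424 and 409.9 TPM at time 0 (log2 difference -0.22, 95% interval -0.38 to -0.07, limma adjusted p = 0.0222). TKL1 (AT3G60750), a chloroplast transketolase that moves 2-carbon units between sugar phosphates, had 488 and 479 TPM at 2 days, against 574 and 561 TPM at time 0 (log2 difference -0.23, 95% interval -0.36 to -0.10, limma adjusted p = 0.0111). Both calls were lost without time 0 replicate 1 (TPI adjusted p = 0.193 and TKL1 adjusted p = 0.162, limma) and without time 0 replicate 2 (TPI adjusted p = 0.126 and TKL1 adjusted p = 0.119, limma), while the log2 differences stayed between -0.25 and -0.20. TKL2 (AT2G45290), the second transketolase gene, moved the other way. Its level was 77.7 and 77.2 TPM at 2 days, against 10.3 and 10.2 TPM at time 0, and TKL2 rose 7.59-fold (log2 difference 2.81, 95% interval 2.66 to 2.95, limma adjusted p = 7.88e-06). The 2 libraries of each group nearly coincided, and the rise was called under each of the 11 alternative settings tried. The summed transketolase level was 566 and 557 TPM at 2 days, against 584 and 571 TPM at time 0.

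CP12 is a small chloroplast protein that binds phosphoribulokinase and glyceraldehyde-3-phosphate dehydrogenase into an inactive complex in the dark. Its 3 genes did not change alike. CP12-1 (AT2G47400) had 246 and 234 TPM at 2 days, against 1264 and 1222 TPM at time 0 (log2 difference -2.37, limma adjusted p = 1.09e-05). CP12-2 (AT3G62410) had 19.3 and 22.2 TPM at 2 days, against 159.7 and 152 TPM at time 0 (log2 difference -2.85, limma adjusted p = 1.33e-05). CP12-3 (AT1G76560) had 19.2 and 22.5 TPM at 2 days, against 14.3 and 14.1 TPM at time 0. CP12-3 was the lowest of the family at time 0 and rose 1.47-fold (log2 difference 0.52, 95% interval 0.29 to 0.76, limma adjusted p = 0.00488), which brought it to the level of CP12-2 at 2 days. No 50-base window is shared between these 3 genes.

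**Figure D2:**
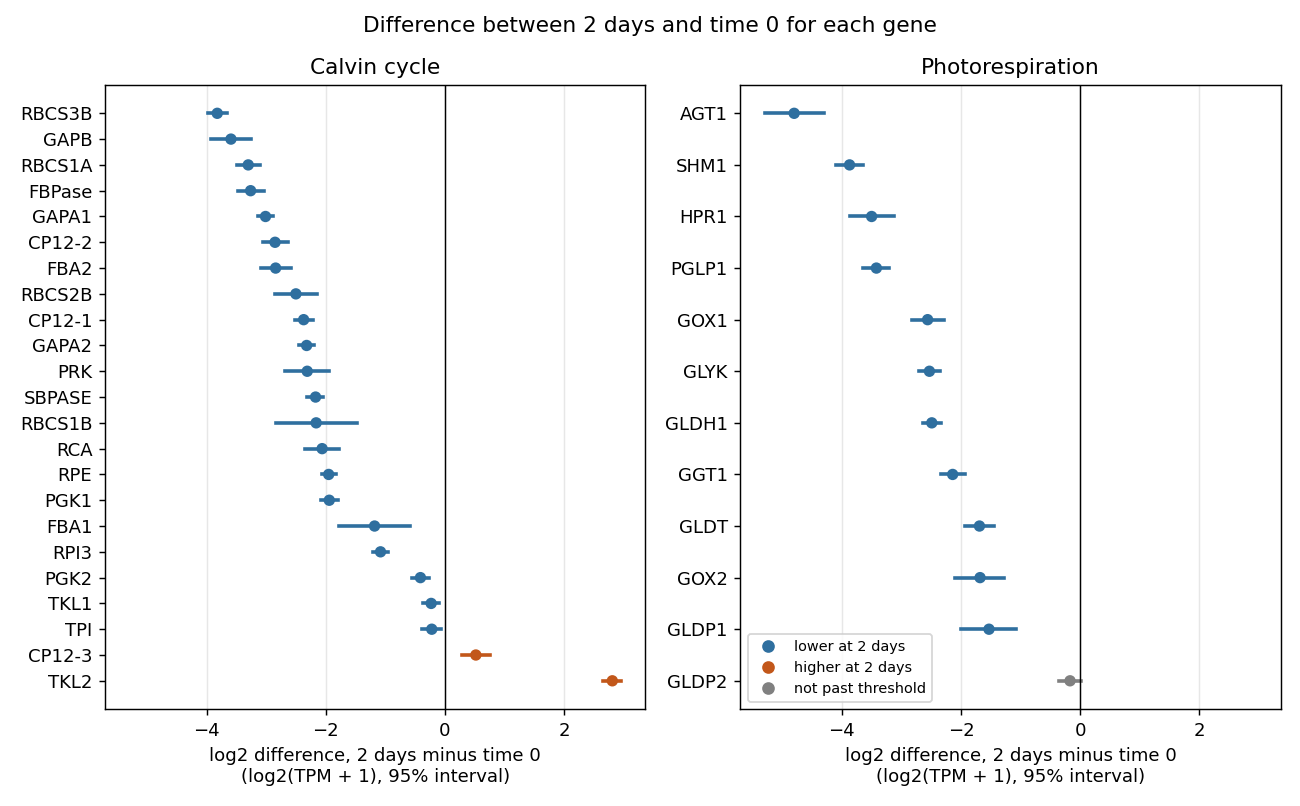
Log2 difference between 2 days and time 0 on the log2(TPM + 1) scale for each gene, in order of size within each pathway (point, limma estimate; bar, 95% interval; n = 2 libraries per group). The estimates run from the AGT1 value of -4.80 to the TKL2 value of 2.81, and the GLDP2 interval is the 1 that spans 0.

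Photorespiratory transcripts fell in 11 of 12 genes, and 8 of 12 fell at least 4-fold. Over all tested genes these shares were 29.5% and 3.06%. The entry enzyme is the phosphoglycolate phosphatase PGLP1 (AT5G36700), a chloroplast protein that removes phosphate from the product of the Rubisco oxygenase reaction. Its level was 16.6 and 19.4 TPM at 2 days, against 203 and 201 TPM at time 0 (log2 difference -3.42, limma adjusted p = 1.09e-05). Of its windows 91.2% also occur in AT5G36790, a near-identical locus with 9 protein-coding genes between them, so the share of each locus is uncertain. Summed over both loci, the level was 24.5 and 26.9 TPM at 2 days, against 256 and 264 TPM at time 0. The last enzyme, glycerate kinase (GLYK, AT1G80380), returns glycerate to the Calvin cycle in the chloroplast. GLYK had 45.6 and 41.5 TPM at 2 days, against 250.1 and 264 TPM at time 0 (log2 difference -2.53, limma adjusted p = 1.14e-05).

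The peroxisomal enzymes fell in 5 of 5 genes, where 29.5% of all tested genes were lower. The peroxisomal sum dropped to 14.7% of its time 0 mean. AGT1 (AT2G13360), the serine:glyoxylate aminotransferase, had 23.7 and 36.3 TPM at 2 days, against 847 and 840.4 TPM at time 0. This was the largest fall of the 35 genes, to 3.56% (log2 difference -4.80, 95% interval -5.29 to -4.30, limma adjusted p = 2.99e-05), and it ranked 30 among the falls of 19078 tested genes. HPR1 (AT1G68010), the hydroxypyruvate reductase that acts next, had 28.1 and 38.1 TPM at 2 days, against 388 and 371 TPM at time 0 (log2 difference -3.50, limma adjusted p = 3.16e-05). The glutamate:glyoxylate aminotransferase GGT1 (AT1G23310) had 122 and 139.7 TPM at 2 days, against 568 and 588 TPM at time 0 (log2 difference -2.14, limma adjusted p = 2.36e-05). Glycolate oxidase, which makes glyoxylate and hydrogen peroxide, is encoded here by the neighbouring genes GOX1 and GOX2. GOX1 (AT3G14420) had 72.9 and 89.7 TPM at 2 days, against 483 and 478 TPM at time 0 (log2 difference -2.56, limma adjusted p = 3.1e-05). GOX2 (AT3G14415) had 93.2 and 132 TPM at 2 days, against 356 and 361 TPM at time 0 (log2 difference -1.68, limma adjusted p = 0.000512). At time 0 GOX1 was above GOX2 in both libraries, and at 2 days it was below GOX2 in both.

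In mitochondria, glycine decarboxylase and serine hydroxymethyltransferase turn 2 glycines into 1 serine with release of CO2 and ammonia. SHM1 (AT4G37930), the photorespiratory serine hydroxymethyltransferase, had 50.6 and 59.4 TPM at 2 days, against 808 and 829 TPM at time 0, and fell to 6.72% (log2 difference -3.87, limma adjusted p = 9.44e-06). The subunits of glycine decarboxylase fell less evenly. GLDH1 (AT2G35370), the H protein gene in this set, had 78.5 and 83.6 TPM at 2 days, against 450.1 and 468 TPM at time 0 (log2 difference -2.49, limma adjusted p = 1.01e-05). GLDT (AT1G11860), for the T protein, had 171 and 204 TPM at 2 days, against 607 and 599 TPM at time 0 (log2 difference -1.69, limma adjusted p = 7.59e-05). The P protein, which binds and decarboxylates glycine, has the copies GLDP1 and GLDP2. GLDP1 (AT4G33010) had 52.2 and 77.0 TPM at 2 days, against 189 and 183 TPM at time 0 (log2 difference -1.53, limma adjusted p = 0.00104). GLDP2 (AT2G26080) had 82.2 and 92.4 TPM at 2 days, against 99.7 and 96.5 TPM at time 0.

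GLDP2 was the 1 gene of the 35 that did not pass, with both 2-day libraries slightly below both time 0 libraries (log2 difference -0.17, 95% interval -0.35 to 0.02, limma adjusted p = 0.0899). It was called lower without 2-day replicate 2 (log2 difference -0.25, limma adjusted p = 0.0205), after quantile normalization (-0.28, limma adjusted p = 0.0207) and after rescaling to the genes outside the organelles and the top 100 by level (-0.29, limma adjusted p = 0.017).

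The pathways were then set side by side. The 23 Calvin cycle genes summed to 5332 and 5862 TPM at 2 days, against 35973 and 34332 TPM at time 0, and the 2-day mean was 15.9% of the time 0 mean. The 12 photorespiration genes summed to 836 and 1013 TPM at 2 days, against 5249 and 5278 TPM at time 0, and the 2-day mean was 17.6%. The ratio of the Calvin cycle sum to the photorespiration sum was 6.38 and 5.79 at 2 days, against 6.85 and 6.5 at time 0. Much of the Calvin cycle sum was RBCS, which made up 45.6% and 46.4% of it at 2 days, against 69.0% and 68.3% at time 0. Without the RBCS genes the Calvin cycle retained 27.4% of its time 0 level, and its ratio to photorespiration was 3.47 and 3.10 at 2 days, against 2.12 and 2.06 at time 0. With RBCS counted the ratio was lower in both 2-day libraries, but the nearest values of the groups (6.38 and 6.5) lay closer than the 2-day libraries did. Without RBCS the ratio was higher at 2 days, and the groups lay further apart than the libraries of either group. By gene, the median log2 difference was -2.17 for the Calvin cycle (range -3.82 to 2.81, 21 lower and 2 higher). It was -2.51 for photorespiration (range -4.80 to -0.17, 11 lower and 0 higher). Over all tested genes 29.5% were lower and 39.2% higher. The medians differed by 0.34 on the log2 scale, beside an SD of 0.199 between replicate libraries, and no test was made over the genes. That difference was 0.17 without 2-day replicate 2 and between 0.26 and 0.35 with any other library left out.

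By phase, the summed level at 2 days was 11.6% of time 0 for carboxylation, 20.1% for reduction, 37.4% for regeneration and 19.9% for CP12. In photorespiration it was 13.4% for the chloroplast enzymes, 14.7% for the peroxisome and 22.0% for the mitochondrion. For glycine decarboxylase GLDP1, GLDP2, GLDT and GLDH1 summed to 384 and 457 TPM at 2 days, against 1345 and 1346 TPM at time 0. That sum does not cover the whole complex. It leaves out the H protein genes GLDH2 and GLDH3 and the mitochondrial lipoamide dehydrogenase genes mLPD1 and mLPD2. Of these, GLDH3 was lower (mean 75.4 TPM at 2 days, against 572 TPM at time 0), and GLDH2, mLPD1 and mLPD2 were higher.

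Where an enzyme has several genes, the copies did not fall in proportion. In each of 8 families the 2-day libraries were separated from the time 0 libraries in the share of each copy. Separation of this kind was common in level, with 37.7% of all tested genes wholly below time 0 and 48.2% wholly above. Shares within a family also depend on each other. Exact two-sided permutation tests gave p = 0.333 for each of the 13 shares, the smallest p that 2 against 2 libraries allow, so none can pass 0.05. TKL2 held 13.7% and 13.9% of transketolase transcript at 2 days, against 1.76% and 1.78% at time 0. PGK2 held 26.8% and 27.3% of chloroplast phosphoglycerate kinase transcript at 2 days, against 11.4% and 11.3% at time 0. The largest exchange was in the P protein, where GLDP2 held 61.2% and 54.6% at 2 days, against 34.6% and 34.6% at time 0. FBA1 held 23.9% and 30.4% of the FBA1 and FBA2 total at 2 days, against 10.7% and 10.4% at time 0. GOX2 held 56.1% and 59.5% of the GOX1 and GOX2 total at 2 days, against 42.4% and 43.0% at time 0. GAPA2 held 54.9% and 54.3% of the A subunit total at 2 days, against 42.6% and 42.5% at time 0. In these 6 families the copy with the lower level at time 0 held a larger share at 2 days. In the small subunit family RBCS1A held 61.0% and 56.4% at 2 days, against 61.5% and 61.3% at time 0, and RBCS3B held 17.7% and 15.6% at 2 days, against 24.97% and 25.16% at time 0. The RBCS shares rest on the uncertain division of reads noted above. CP12-3 held 6.76% and 8.06% of CP12 transcript at 2 days, against 0.992% and 1.02% at time 0, and CP12-1 remained the main copy in all 4 libraries.

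**Figure D3:**
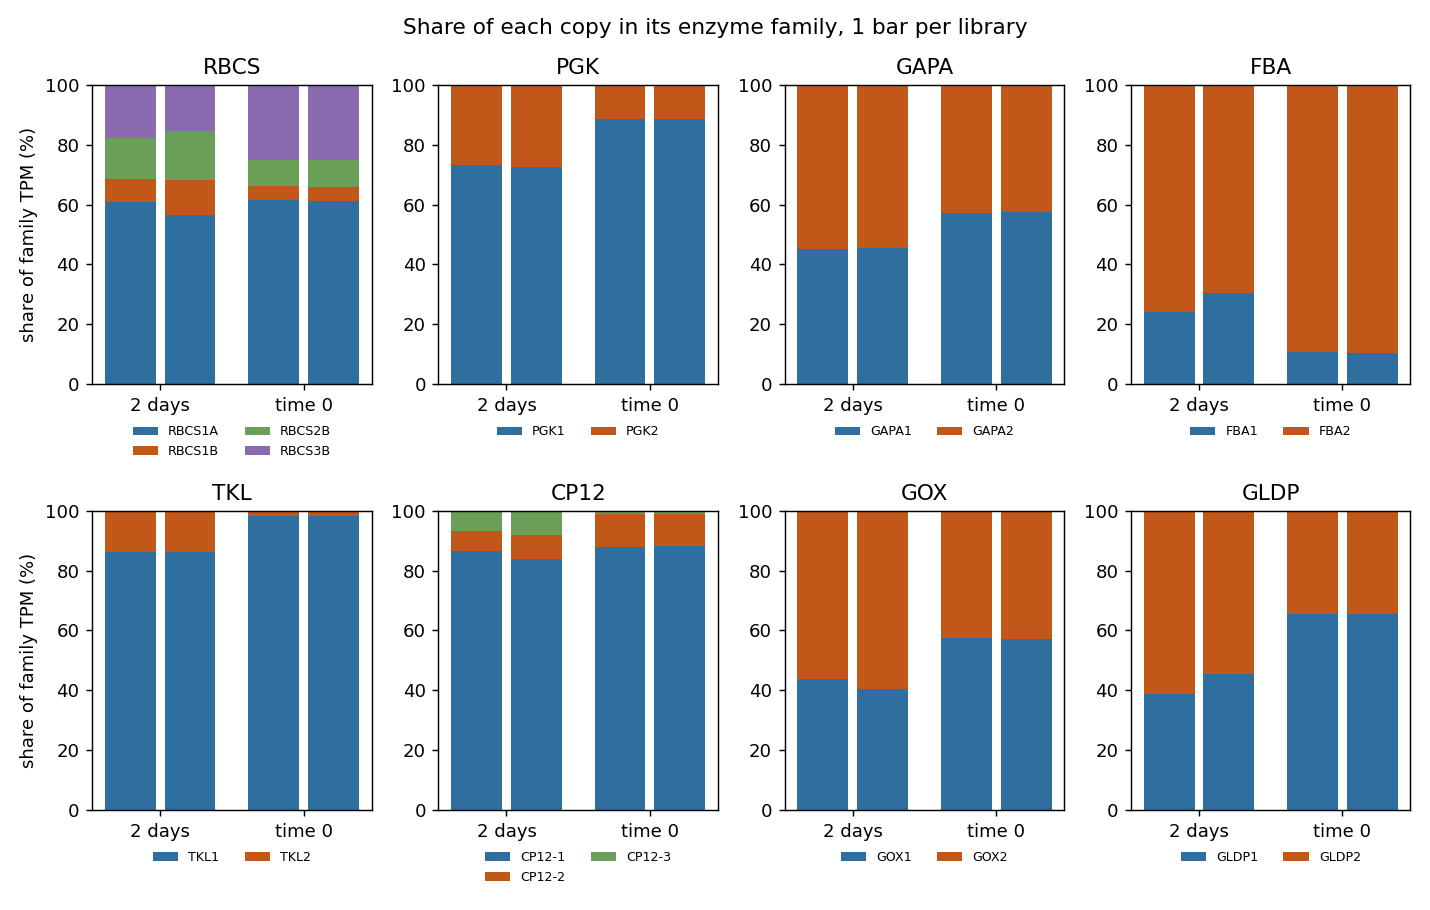
Share of summed family TPM held by each gene copy (percent, 1 stacked bar per library, 2-day libraries left of time 0 libraries) in 8 families. The shares of TKL2, PGK2, GAPA2, FBA1, GOX2 and GLDP2 are larger in both 2-day libraries than in both time 0 libraries.

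Other genes of the same pathways were read from the same fit, in which 29.5% of all tested genes were lower and 39.2% higher. Of 13 genes for Rubisco assembly and upkeep, 11 were lower and 2 higher, with a median log2 difference of -1.10, and 9 were lower when either time 0 library was left out. RBCX1 (AT4G04330), a Rubisco folding chaperone, had 2.85 and 2.76 TPM at 2 days, against 119 and 121 TPM at time 0 (log2 difference -5.0, limma adjusted p = 4.33e-06), and 13.6% of its windows also occur on the opposite strand of a neighbouring gene. AT3G48420, described in the annotation as a hydrolase of the haloacid dehalogenase family, had 10.03 and 10.7 TPM at 2 days, against 125 and 127 TPM at time 0 (limma adjusted p = 6.73e-06). The chaperonin beta subunits CPN60B3 (AT5G56500) and CPN60B2 (AT3G13470) rose, and CPN60B3 stood at 46.4 and 48.4 TPM at 2 days, against 10.3 and 10.2 TPM at time 0 (log2 difference 2.11, limma adjusted p = 1.37e-05). The level of CPN60B2 was 64.5 and 78.0 TPM at 2 days, against 38.1 and 40.0 TPM at time 0 (limma adjusted p = 0.00111). Of the CPN60B2 windows 3.5% also occur on the opposite strand of another gene.

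Of 8 further genes linked to the Calvin cycle, 6 were lower, 1 was higher and 1 was not past the threshold (median log2 difference -0.74). The shares over all tested genes were 29.5% lower and 39.2% higher. Thioredoxins f1 and f2, which activate Calvin cycle enzymes in the light, fell in both genes. TRXF2 (AT5G16400) had 16.8 and 17.8 TPM at 2 days, against 79.0 and 79.1 TPM at time 0 (limma adjusted p = 1.2e-05). TRXF1 (AT3G02730) had 56.8 and 78.9 TPM at 2 days, against 246 and 241 TPM at time 0 (limma adjusted p = 0.000304). Of the TRXF1 windows 5.7% also occur on the opposite strand of another gene. The third plastid aldolase, FBA3 (AT2G01140), went against FBA1 and FBA2. FBA3 had 469 and 523 TPM at 2 days, against 151 and 145 TPM at time 0, and rose 3.34-fold (log2 difference 1.73, limma adjusted p = 3.09e-05).

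Of 23 further genes of photorespiration and its partners, 12 were lower and 8 higher, and 3 did not pass (median log2 difference -0.20). Among all tested genes 29.5% were lower and 39.2% higher, so the count of higher genes lay near the share over all genes. The count lower was 8 without time 0 replicate 1 and 10 without time 0 replicate 2. PMDH2 (AT5G09660), a peroxisomal malate dehydrogenase, had 13.2 and 14.5 TPM at 2 days, against 324 and 324 TPM at time 0 (log2 difference -4.45, limma adjusted p = 4.97e-06). PLGG1 (AT1G32080, LrgB in the annotation), the chloroplast translocator of glycolate and glycerate, had 3.76 and 3.24 TPM at 2 days, against 77.9 and 79.2 TPM at time 0 (log2 difference -4.15, limma adjusted p = 7.74e-06). PMDH2 fell to 4.28% and PLGG1 to 4.46% of the time 0 mean. GOX3 (AT4G18360), a glycolate oxidase homologue, was near 0 at time 0 and abundant at 2 days. Its level was 64.3 and 63.7 TPM at 2 days, against 0.05 and 0.02 TPM at time 0 (log2 difference 5.97, limma adjusted p = 4.9e-06), and no window of GOX3 is shared with GOX1 or GOX2. GLDH2 (AT2G35120, annotated as a single hybrid motif protein) was listed as a further H protein gene of glycine decarboxylase. Unlike GLDH1 it rose, with 123 and 143 TPM at 2 days, against 25.1 and 23.7 TPM at time 0 (log2 difference 2.39, limma adjusted p = 2.33e-05).

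Several reactions of the Calvin cycle and photorespiration are also catalysed by gene copies that serve glycolysis or other non-photosynthetic metabolism. Of 15 such genes 10 were higher and 4 lower, and 1 did not pass, with a median log2 difference of 0.89. Among all tested genes 39.2% were higher and 29.5% lower. GAPCP1 (AT1G79530), the plastid glyceraldehyde-3-phosphate dehydrogenase of glycolysis, had 159 and 182 TPM at 2 days, against 9.34 and 9.5 TPM at time 0 (log2 difference 4.04, limma adjusted p = 7.74e-06), with 9.9% of its windows on the opposite strand of another gene. The cytosolic GAPC1 (AT3G04120) had 999.99 and 1122 TPM at 2 days, against 169 and 161 TPM at time 0 (log2 difference 2.68, limma adjusted p = 1.26e-05). Cytosolic copies that fell included FBA5 (AT4G26530), with 0.57 and 0.54 TPM at 2 days, against 79.7 and 74.4 TPM at time 0 (log2 difference -5.65, limma adjusted p = 4.92e-06). The cytosolic fructose-1,6-bisphosphatase of sucrose synthesis (AT1G43670) had 6.04 and 7.88 TPM at 2 days, against 85.6 and 86.7 TPM at time 0 (log2 difference -3.46, limma adjusted p = 2.03e-05).

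Summed by reaction, a grouping made after the values were seen, the photosynthetic and the other copies moved in opposite directions in several steps. For phosphoglycerate kinase the PGK1 and PGK2 sum was 412 and 432 TPM at 2 days, against 1358 and 1319 TPM at time 0. The cytosolic PGK3 (AT1G79550) was 419 and 470.1 TPM at 2 days, against 113 and 108 TPM at time 0. PGK3 thus carried 50.4% and 52.1% of phosphoglycerate kinase transcript at 2 days, against 7.71% and 7.55% at time 0. For glyceraldehyde-3-phosphate dehydrogenase the GAPA1, GAPA2 and GAPB sum was 287 and 309 TPM at 2 days, against 2235 and 2255 TPM at time 0. The GAPC and GAPCP copies summed to 3160.3 and 3531 TPM at 2 days, against 902 and 882 TPM at time 0. With both kinds of copy added, this reaction stood at 3447 and 3839.7 TPM at 2 days, against 3137 and 3137 TPM at time 0.

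For aldolase the FBA1 and FBA2 sum was 208 and 272 TPM at 2 days, against 1430.4 and 1347 TPM at time 0. The sum of FBA3 to FBA8 was 1385 and 1544 TPM at 2 days, against 656 and 635 TPM at time 0. The plastid aldolase FBA3 is counted with the other copies here. It made up 469 and 523 TPM of their sum at 2 days, against 151 and 145 TPM at time 0. Triose-phosphate isomerase shifted less, with the cytosolic copy (AT3G55440) at 71.1% and 71.5% of the total at 2 days, against 53.0% and 53.9% at time 0. Fructose-1,6-bisphosphatase did not shift towards the cytosol, since the cytosolic copy held 14.0% and 15.3% at 2 days, against 17.7% and 18.3% at time 0. In serine hydroxymethyltransferase SHM2 (AT5G26780), the second mitochondrial gene, had 70.0 and 68.1 TPM at 2 days, against 19.8 and 21.6 TPM at time 0 (limma adjusted p = 2.7e-05). SHM2 held 58.03% and 53.4% of the SHM1 and SHM2 total at 2 days, against 2.39% and 2.54% at time 0.

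**Figure D4:**
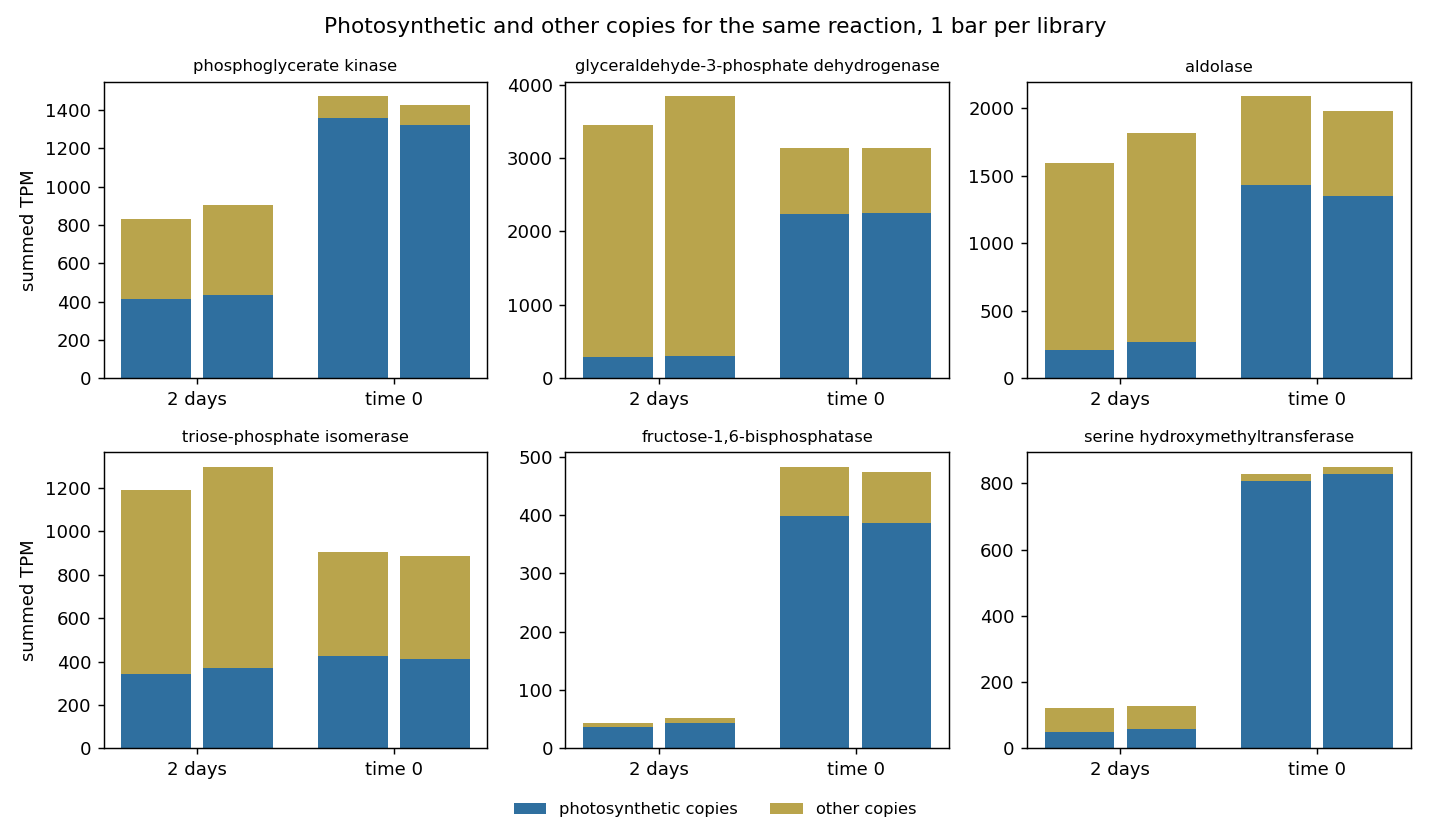
Summed TPM of the photosynthetic copies and of the other copies for 6 reactions (1 stacked bar per library, 2-day libraries left of time 0 libraries). The plastid aldolase FBA3 is counted with the other copies. The photosynthetic part is smaller at 2 days in all 6 panels, and the other copies are larger at 2 days in 5 panels and smaller for fructose-1,6-bisphosphatase.

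Light reaction genes, which encode the machinery that supplies ATP and NADPH, were set beside the 35 genes of both pathways. Of 39 genes of the antenna, photosystems and electron transport, 36 were lower, 2 higher and 1 not past the threshold, where 29.5% of all tested genes were lower and 39.2% higher. The light reaction median log2 difference was -2.28 (range -5.83 to 0.92) beside -2.31 for the 35 genes of both pathways. The 39 genes summed to 26785 and 22971 TPM at 2 days, against 127402 and 123447 TPM at time 0. Their 2-day mean was thus 19.8% of time 0, beside 16.1% for the 35 genes. LHCB1.4, an antenna protein of photosystem II, had 132 and 71.5 TPM at 2 days, against 5749 and 5440.4 TPM at time 0 (limma adjusted p = 5.11e-05). FNR2, which passes electrons from ferredoxin to NADP, had 35.5 and 48.0 TPM at 2 days, against 1225 and 1302 TPM at time 0 (limma adjusted p = 1.36e-05). The antenna genes LHCB2.1 and LHCB2.2 were the 2 higher ones. LHCB2.1 had 339 and 325 TPM at 2 days, against 174 and 177 TPM at time 0 (limma adjusted p = 7.93e-05). LHCB2.2 had 548 and 416 TPM at 2 days, against 323 and 318 TPM at time 0 (limma adjusted p = 0.0134). Of their windows 21.9% (LHCB2.1) and 28.2% (LHCB2.2) occur in the other copy. Of those of LHCB1.4, 13.7% occur in related antenna genes and 13.6% on the opposite strand of another gene. Reads of these copies may therefore be divided wrongly. The count of 2 higher genes was 1 without time 0 replicate 1, 1 without time 0 replicate 2 and 3 without 2-day replicate 2.

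The 2-day libraries differed from each other in these groups, and what moved with the difference was not tested. Of the 35 genes, 29 were higher in 2-day replicate 2 than in 2-day replicate 1, where 40.0% of all tested genes were. These were 18 of 23 Calvin cycle genes and 11 of 12 photorespiration genes. Light reaction transcripts were higher in replicate 2 in 8 of 39 genes. The same held for 5 of 13 Rubisco assembly genes, 4 of 8 further Calvin cycle genes and 11 of 23 further photorespiration genes. The shift was not particular to the Calvin cycle and photorespiration. Of the 15 non-photosynthetic copies, 14 were higher in replicate 2, with a median log2 difference of 0.154. The median log2 difference of replicate 2 minus replicate 1 was 0.196 for the 35 genes, -0.15 for the light reactions and -0.041 for all tested genes. Among the 35 genes FBA1 and RBCS1B differed most between these libraries. At time 0 the same median was -0.034 for the 35 genes and 0.028 for all tested genes. Without 2-day replicate 1 the Calvin cycle median was -2.10, and without 2-day replicate 2 it was -2.33.

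**Figure D5:**
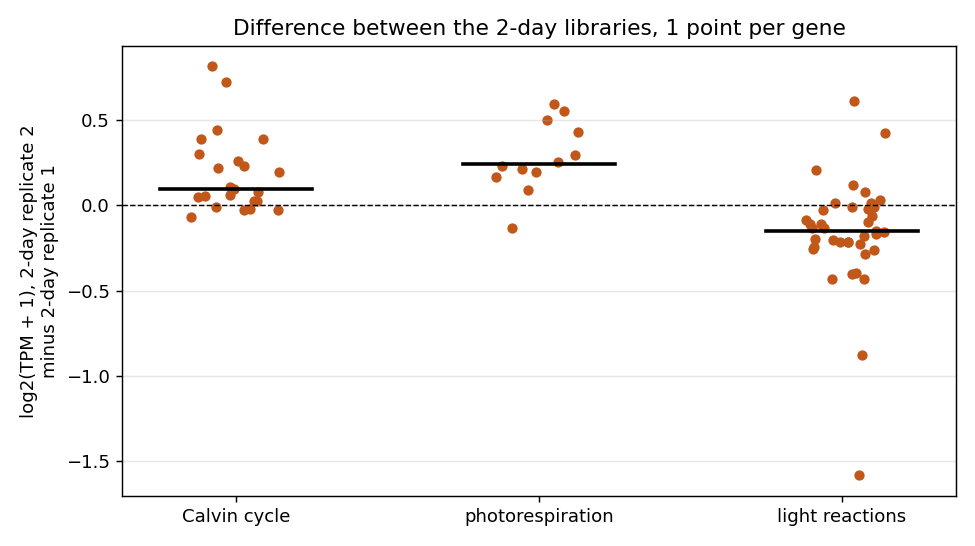
Difference between 2-day replicate 2 and 2-day replicate 1 on the log2(TPM + 1) scale, with 1 point per gene and a bar at the median, for the Calvin cycle (23 genes), photorespiration (12 genes) and the light reactions (39 genes). Most Calvin cycle and photorespiration genes lie above 0 and most light reaction genes below it.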

How the data were processed

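RNA was sequenced from 4 libraries, 2 per group, and groups and replicate numbers were taken from the sample titles. The authors deposited one table of TPM for 37686 genes, rounded to 2 decimals, and the submitters' processing notes name RSEM 1.3.2, STAR 2.7.2b, Trim Galore 0.5.0 and, as build, TAIR10. How RSEM divided reads among near-identical copies, and whether strand was used, is not given in the sources used here. That table holds no counts, so the depth per library and its counting error are unknown.

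From these values limma 3.58.1 (R 4.3.3) was run on log2(TPM + 1) with a mean-variance trend and Benjamini-Hochberg adjustment over the 19078 genes that averaged 1 TPM or more, two-sided, and 18608 genes fell below that filter. Fold changes on this scale understate the change of low genes. Isoform shares were compared by exact permutation tests. Same-numbered libraries did not deviate together (correlation -0.067), so no block was used in the main fit. With 2 libraries per group the crossed numbers give the same value with the opposite sign (0.067), so this cannot exclude a pairing. Sequence shared between genes was searched as windows of 50 bases in RefSeq transcripts of TAIR10.1, from which no coordinates or sequences are given, and 35 of 35 loci were matched by identifier. Alternatives were another pseudocount (0.1 or 5 TPM), no filter or a filter at 5 TPM, quantile normalization, rescaling to the genes outside the organelles and the top 100 by level, leaving out each library, and a replicate block.

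The genes and lists were chosen with earlier results of these data known. By rule, every copy of the multigene families, the members with the largest falls and those higher or not past the threshold are given with values in every library, and from each further list up to 2 called genes in each direction. The reaction sums and the genes named only there were chosen after their values were seen.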

Additional observations from a re-analysis of the deposited data

How the results depend on the processing

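Over 35 genes and 11 alternatives, 377 of 385 results kept their direction and side of the threshold, 5 lost the call (FBA1, TPI and TKL1 without a time 0 library), 3 gained it (GLDP2) and 0 turned round. The Calvin cycle median log2 difference of -2.17 was -2.14 with a pseudocount of 5 TPM, -2.31 after quantile normalization and -2.30 after rescaling, and between -2.33 and -2.10 with 1 library left out. Quantile normalization moved the median of all tested genes to -0.06 and rescaling moved it to -0.02, from 0.09. The 2 light reaction genes called higher were 1 after quantile normalization and 1 to 3 with 1 library left out. With 1 library left out, 8 to 12 of the further photorespiration genes (12 as reported) and 9 to 11 of the Rubisco assembly genes (11 as reported) were lower, and the difference between the pathway medians was 0.17 to 0.35 (0.34 as reported). RBCS1A was -2.69 after quantile normalization. The cause was not tested. With the replicate block, 21 Calvin cycle genes and 11 photorespiration genes were lower, 2 Calvin cycle genes were higher, and the medians were -2.17 and -2.51. The block changed no call among the 35 genes, and 11 further photorespiration genes and 10 Rubisco assembly genes were lower with it. The labels do not say whether same-numbered libraries are paired, and over all tested genes the block gave 5283 lower and 7101 higher. With 2 libraries per group, the calls of FBA1, TPI, TKL1 and GLDP2 changed with a single library. Read division among RBCS copies and between PGLP1 and AT5G36790 limits the values of single copies more than their sums.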
